A study of Mus musculus with 6 samples.

Results

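The genes described here are 10 transcriptional regulators of mitochondrial and fatty acid metabolism: the coactivators Ppargc1a and Ppargc1b, the muscle regulator Perm1, the estrogen-related receptors Esrra, Esrrb and Esrrg, the receptors Ppara, Ppard and Rxra, and nuclear respiratory factor 1 (Nrf1). They were chosen by name, and all 10 were found among the 24972 gene rows of the deposited table and passed the minimum mean of 10 normalized counts, as did 12477 genes in all. Libraries came from the cardiomyocytes of MX1gfp mice, a strain carried by both groups. The vehicle group (n = 3) received 100 microlitres of phosphate-buffered saline into the peritoneum, and the doxorubicin group (n = 3) received 25 mg of doxorubicin per kg body weight once in the same volume. Hearts were taken 48 hours later, ventricles were digested with collagenase, and myocytes were enriched by settling under gravity, without sorting. The labels give neither the sex nor the age of the animals. Doxorubicin is an anthracycline that poisons topoisomerase II and damages the heart muscle.

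PGC-1 proteins do not bind DNA themselves. They are recruited by nuclear receptors such as the ERRs and PPARs, and by NRF1, to genes of the respiratory chain, the citric acid cycle and fatty acid oxidation, on which the adult heart relies for most of its energy. PPARs bind DNA as heterodimers with RXR, whereas ERRs are orphan receptors that recognise an extended half-site, and PERM1 is a striated muscle protein that acts with PGC-1 and ERRs.

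Of the 10 regulators, 9 had a negative log2 difference, against 50.4% of all tested genes, and 7 were lower by 0.7 or more on the log2 scale after doxorubicin: Ppargc1a, Ppargc1b, Perm1, Esrra, Esrrb, Esrrg and Ppara. Among all tested genes, 13.8% were that much lower. The cut of 0.7 was not part of the planned comparisons, and the smallest of these 7 differences (Ppargc1a, -0.76) lies just past it. With libraries scaled to equal totals, Ppargc1a (-0.46) and Esrrb (-0.63) did not reach the cut. That scaling moves the median of all tested genes to 0.30. Ppard and Rxra lay close to the vehicle level, and Nrf1 had a positive difference. None of the 10 (0) passed limma's test at a Benjamini-Hochberg adjusted p of 0.05, against 0% of all tested genes, and 6 of them had an unadjusted p under 0.05, all lower, against 35.9% of all tested genes in either direction and 19.3% lower. Limma called 7 of the 10 lower and 1 higher once doxorubicin replicate 1 was left out, where it called 41.1% of all tested genes (21.8% lower and 19.3% higher). Differences below are of log2(value + 1), with the vehicle mean subtracted from that of doxorubicin.

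The libraries differed in ways that bear on every one of these values. Doxorubicin replicate 1 resembled the vehicle libraries, with Spearman correlations across genes of 0.977 to 0.982, against 0.860 to 0.914 for replicates 2 and 3. Fits without replicate 1 thus leave out the doxorubicin library most like vehicle. Each other removal of 1 library called 0 regulators, and at most 1 of the 12477 tested genes. Reads estimated from the spacing of low values numbered 7710000 to 11400000 in vehicle libraries and 3670000 to 6170000 in doxorubicin libraries, so depth and treatment cannot be told apart. The 15 cardiomyocyte markers, such as the myosin Myh6 and the titin gene Ttn, summed to 883776 to 1040633 normalized counts in vehicle libraries and to 771305, 276659 and 228225 in doxorubicin replicates 1 to 3. The 10 macrophage markers summed to 2349.5 to 2509 in vehicle libraries and to 3835, 6815 and 15001 after doxorubicin, and 10 of 10 had a positive difference. The summed levels of fibroblast and endothelial markers were also above all vehicle libraries in every doxorubicin library, with 9 of 10 genes positive in each list. Mural markers summed to 11321, 12486 and 13327 after doxorubicin, inside the range of 9861 to 14629 in vehicle libraries. Their median log2 difference was -0.22, with 5 of 8 lower. Lymphocyte markers summed to 88.1 in doxorubicin replicate 1, above the 21.5 to 51.7 of vehicle libraries. Their sum lay below that range in replicate 2 and inside it in replicate 3. The 6 neutrophil markers summed to 10.5 to 21.7 in vehicle libraries and to 55.0, 563 and 419 after doxorubicin. Atrial markers summed to 1431 in doxorubicin replicate 1, against 456 to 526 in vehicle libraries and 368 and 708 in doxorubicin replicates 2 and 3. None of these markers was at 0 in all libraries. The part of these shifts in the values below was not tested, and in such bulk libraries fewer cells of a type and less RNA per cell cannot be told apart. Xist and Y-linked transcripts placed vehicle replicate 3 and doxorubicin replicates 1 and 3 in one class and the other libraries in another, so each regulator is also given within these classes, as differences without a test. Doxorubicin replicate 2 is the only doxorubicin library of the Y-linked class, and vehicle replicate 3 the only vehicle library of the Xist class. A contrast between the classes therefore cannot be told apart from differences between single libraries.

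Promoter windows for 9 of the regulators, all but Ppargc1b, were found in RefSeq (GRCm38.p6), each spanning 250 bases before to 50 bases after an annotated start. The only windows of Ppargc1a (51567676 to 51567975) and Perm1 (156215677 to 156215976) lie well inside the gene spans given below. The outer starts of those spans had no window and were not searched. The 15 windows were searched on both strands for the ERR half-site AAGGTCA and the longer ERR element TNAAGGTCA that contains it, the direct repeat of AGGTCA spaced by 1 base that PPAR and RXR bind, the NRF1 core GCATGCGC, the full cyclic AMP element TGACGTCA and its part TGACGT, and the core of the MEF2 motif. Stretches of 5 regulators are shown because they set genes with a log2 difference of -0.7 or lower (Ppargc1a, Perm1, Esrra, Ppara), none past the test with all libraries, beside one near 0 (Rxra), with capitals marking the match and the strand being that of the gene.
Ppargc1a, chr5:51567730-51567815, minus strand, TGACGT read on the opposite strand: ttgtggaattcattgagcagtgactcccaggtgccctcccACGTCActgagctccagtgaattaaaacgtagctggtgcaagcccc
Perm1, chr4:156215685-156215771, plus strand, ERR half-site read on the opposite strand: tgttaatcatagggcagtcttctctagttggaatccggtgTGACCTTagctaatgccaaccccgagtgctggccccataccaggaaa
Rxra, chr2:27709203-27709289, plus strand, second of 2 windows, ERR half-site: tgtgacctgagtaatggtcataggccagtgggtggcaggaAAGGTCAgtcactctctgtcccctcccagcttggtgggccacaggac
Esrra, chr19:6921825-6921852, minus strand, NRF1 core: cccctgttttGCATGCGCaggccggccc
Ppara, chr15:85735735-85735764, plus strand, NRF1 core on both strands, the matches overlapping: gggctcggtgGCGCATGCGCgcggactagg

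Perm1 and Rxra were the 2 regulators with the ERR half-site, a match held by 4.72% of 32851 windows of the same length. Its match starts 202 bases before the annotated start in Perm1 and 49 in Rxra. The NRF1 core was found in Esrra and Ppara, at 34 and 31 bases before the start, and in 2.71% of all windows. Ppargc1a held TGACGT at 50 bases before its start, as did 7.51% of windows somewhere in theirs, but no full cyclic AMP element (1.79%). A MEF2 core lay 22 bases before 1 of the 4 annotated starts of Esrrg (3.69% of windows). The longer ERR element (1.28%) and the direct repeat (0.0396%) matched in 0 of the 15 windows. A match describes the letters only.

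Ppargc1a (chromosome 5, 51454249 to 52115853) encodes PGC-1alpha, the inducible coactivator that responds to fasting, exercise and cold. It was at 583, 668 and 928 normalized counts in vehicle replicates 1 to 3 and at 637, 335 and 349.6 in doxorubicin replicates 1 to 3. Replicates 2 and 3 lay below every vehicle library and replicate 1 inside the vehicle range, so the groups overlapped. The means were 727 ± 179.9 and 440.4 ± 170.5 (SD, n = 3 in each group), a log2 difference of -0.76 (SE 0.29, limma adjusted p 0.111). Without doxorubicin replicate 1 the difference was -1.06 (limma adjusted p 0.00523). It was -0.90 within the Y-linked class and -0.97 within the Xist class.

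Ppargc1b encodes PGC-1beta, a coactivator with overlapping targets that supports basal mitochondrial content. It was the most variable of the regulators, at 328, 571 and 341 with vehicle, then 409.8, 65.3 and 136 in doxorubicin replicates 1 to 3. Its lowest value, in replicate 2, was 15.8% of the vehicle mean, whereas replicate 1 was at 99.2%. The log2 difference was -1.37 (SE 0.60, limma adjusted p 0.144), with groups that overlapped. It was -2.07 without doxorubicin replicate 1 (limma adjusted p 0.00272) and -0.75 without replicate 2. Within the Y-linked class, whose only doxorubicin library is replicate 2, it was -2.71, and within the Xist class -0.52. The low value in replicate 2 rests on about 54.0 reads.

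Perm1 (chromosome 4, 156203262 to 156221307) had the largest log2 difference of the regulators with all 6 libraries. Ppargc1b passed it without doxorubicin replicate 1 (-2.07 against -2.00) and with library weights (-2.09 against -1.76). The same held with quantile normalization (-1.37 against -1.25), without vehicle replicate 3 (-1.48 against -1.39) and without doxorubicin replicate 3 (-1.28 against -1.20). Perm1 held 3296, 3578 and 4046 normalized counts with vehicle, and 2732, 905 and 911 in doxorubicin replicates 1 to 3. Every doxorubicin library lay below every vehicle library, and replicates 2 and 3 were at 24.9% and 25.0% of the vehicle mean. The means were 3639.8 ± 379 and 1516 ± 1053 (SD, n = 3 in each group), a log2 difference of -1.47 (SE 0.42, limma adjusted p 0.0859). Without doxorubicin replicate 1 it was -2.00 (limma adjusted p 0.000208). Within the Y-linked class it was -1.92 and within the Xist class -1.36. Its promoter stretch with the ERR half-site is printed above.

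**Figure D1:**
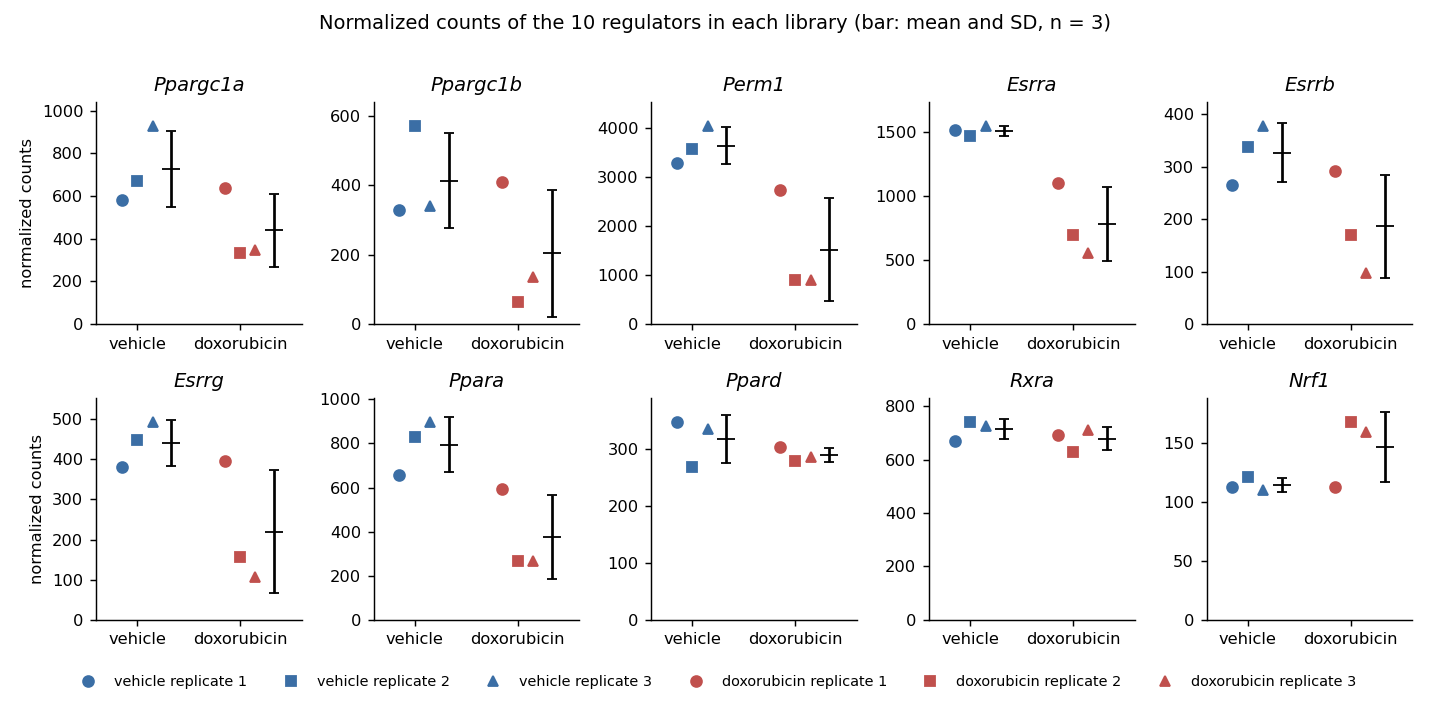
Normalized counts (vertical axis, from 0) of the 10 regulators in the 3 vehicle and 3 doxorubicin libraries, with replicate shown by symbol and the mean and SD by a bar. Doxorubicin replicates 2 and 3 lie below all vehicle libraries in 7 of the 10 regulators, against 32.9% of all tested genes. Replicate 1 lies below all vehicle libraries in Perm1, Esrra and Ppara and inside the vehicle range in the others. How many of all tested genes have replicate 1 inside that range was not computed.

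The estrogen-related receptors bind DNA without a known natural ligand and drive the energy-producing genes of heart and muscle. Esrra (chromosome 19, 6910977 to 6922048) was tight among the vehicle libraries, at 1509.6, 1464 and 1544, and was at 1100.5, 691 and 551 in doxorubicin replicates 1 to 3. The groups did not overlap, and replicate 1, at 73.1% of the vehicle mean, was the lowest relative to vehicle of any regulator in that library. Its log2 difference was -1.01 (SE 0.25, limma adjusted p 0.0859), or -1.28 without doxorubicin replicate 1 (limma adjusted p 0.000742). Within the classes it was -1.10 (Y-linked) and -0.99 (Xist). Of its 4387 annotated exon bases in GENCODE, 73 are shared with Trmt112 on the opposite strand and 91 with the microRNA gene Mir6990, and the use of strand in counting is not given in the sources used here.

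Esrrg (chromosome 1, 187608510 to 188214885), which encodes ERRgamma, the isoform tied to the switch to oxidative metabolism after birth, was at 379.8, 447 and 494 in vehicle libraries. In doxorubicin replicates 1 to 3 it was at 394, 158 and 107, so replicate 1 lay inside the vehicle range and the other two well below it. The log2 difference was -1.21 (SE 0.43, limma adjusted p 0.0988), and -1.75 without doxorubicin replicate 1 (limma adjusted p 0.000672). Within the classes it was -1.38 (Y-linked) and -1.26 (Xist).

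Esrrb (chromosome 12, 86361117 to 86521628), better known for its role in stem cells and placenta, was at 265, 338 and 378 in vehicle libraries, then 291, 170.4 and 97.95 in doxorubicin replicates 1 to 3. Again replicate 1 lay inside the vehicle range. The log2 difference was -0.93 (SE 0.37, limma adjusted p 0.119), -1.32 without doxorubicin replicate 1 (limma adjusted p 0.00532) and -0.54 without replicate 3. Its replicate 3 value rests on about 66.4 reads. Within the classes it was -0.81 (Y-linked) and -1.16 (Xist).

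Ppara (chromosome 15, 85734910 to 85806851) encodes the fatty acid sensor that activates oxidation genes in heart and liver. It was at 656, 828 and 899 in vehicle libraries, then 595, 266 and 266 in doxorubicin replicates 1 to 3, without overlap between the groups. The means were 794 ± 125 and 375 ± 190.0 (SD, n = 3 in each group), a log2 difference of -1.18 (SE 0.32, limma adjusted p 0.0859). It was -1.56 without doxorubicin replicate 1 (limma adjusted p 0.000488), and -1.47 and -1.18 within the Y-linked and Xist classes.

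Ppard (chromosome 17, 28232754 to 28301469), the more widely expressed PPAR, was at 347, 268 and 335 in vehicle libraries, then at 303, 278 and 285 in doxorubicin replicates 1 to 3. All 3 doxorubicin values lay inside the vehicle range. The log2 difference was -0.12 (95% interval -0.48 to 0.23, limma adjusted p 0.575), an interval that holds differences of either sign. Rxra (chromosome 2, 27676445 to 27763319), the common heterodimer partner, was at 671, 743 and 728 in vehicle libraries and 694, 630.1 and 713 after doxorubicin. Its groups overlapped, with a log2 difference of -0.07 (95% interval -0.39 to 0.24, limma adjusted p 0.716). Both signs turn when libraries are scaled to equal totals, to 0.18 for Ppard and 0.23 for Rxra, and that scaling moves the median of all tested genes to 0.30. Neither was called without doxorubicin replicate 1, where the differences were -0.16 and -0.09. Within the Y-linked and Xist classes Ppard was at -0.13 and -0.19, and Rxra at -0.16 and -0.05.

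Nrf1 (chromosome 6, 30047985 to 30153458) encodes nuclear respiratory factor 1, an activator of nuclear genes for respiration and for mitochondrial DNA transcription, and not the stress factor of similar nickname. It was at 113, 121 and 110.2 in vehicle libraries, then at 113, 169 and 160.0 in doxorubicin replicates 1 to 3. Replicates 2 and 3 stood above every vehicle library and replicate 1 among them. The log2 difference was 0.33 (95% interval -0.11 to 0.78, limma adjusted p 0.238). Without doxorubicin replicate 1 it was 0.51 (limma adjusted p 0.0312). Within the classes it was 0.52 (Y-linked) and 0.29 (Xist).

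Groups did not overlap in 3 of the 10 regulators, Perm1, Esrra and Ppara, each lower, against 22.6% of all tested genes lower without overlap. The share of the regulators, 3 of 10, is near that background, and 41.8% of all tested genes did not overlap in either direction. With doxorubicin replicate 1 left out, 7 of the 10 were lower without overlap, against 32.9% of all tested genes. The median log2 difference of the regulators was -0.97, against -0.0046 over all tested genes. By library the median of the regulators, relative to the vehicle mean, was -0.15, -1.10 and -1.50 in doxorubicin replicates 1 to 3. The cardiomyocyte markers had medians of -0.44, -1.71 and -2.00 in the same libraries. Perm1, at -0.41, -2.00 and -1.99, was close to the marker medians in each library. Ppargc1a, at -0.16, -1.09 and -1.02, and Esrra, at -0.45, -1.12 and -1.45, were above them in replicates 2 and 3. Ppargc1b was below the marker median in replicate 2, at -2.59, and above it in replicates 1 and 3, at 0.04 and -1.54. The marker genes themselves varied, with log2 differences from -2.10 to -0.56 over all libraries. Ppargc1a (-0.76), Esrra (-1.01), Perm1 (-1.47) and Ppargc1b (-1.37) all lay inside that range.

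**Figure D2:**
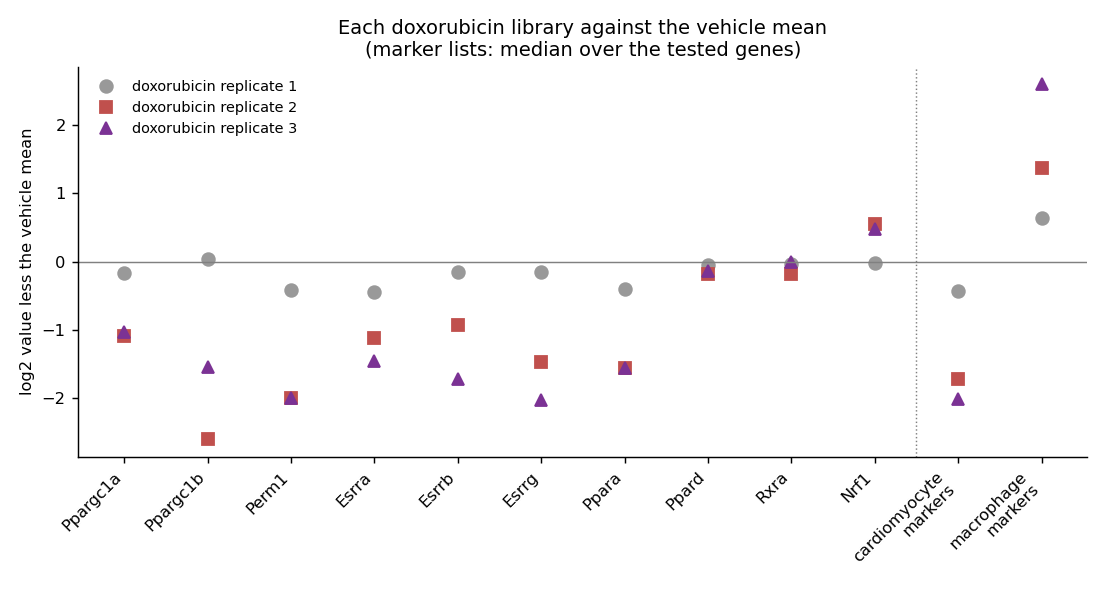
Log2 value of each regulator in each doxorubicin library less the vehicle mean (vertical axis), with the median of 15 cardiomyocyte and 10 macrophage markers on the right of the dotted line. Replicate 1 ranges from -0.45 for Esrra to 0.04 for Ppargc1b, while replicates 2 and 3 reach -2.59 for Ppargc1b and 0.55 for Nrf1.

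**Figure D3:**
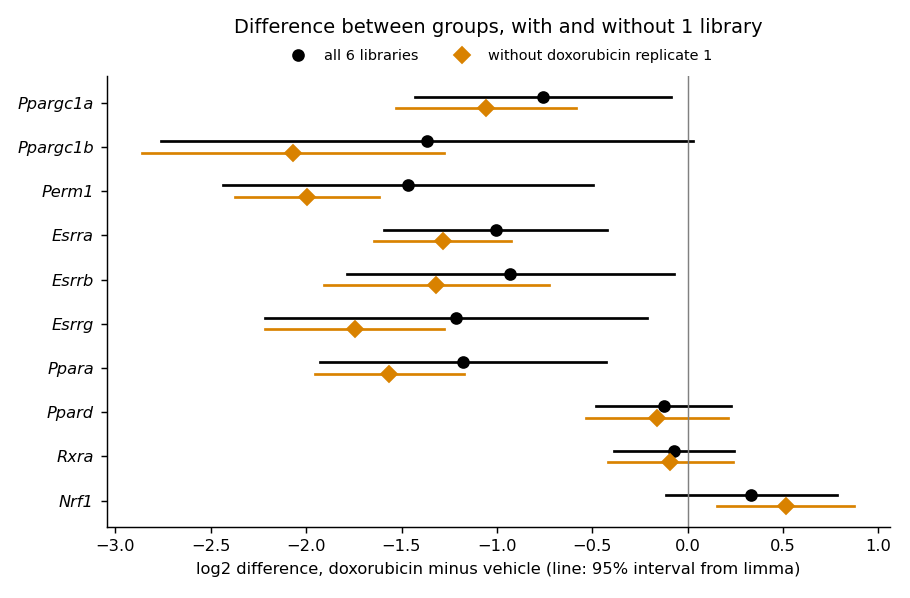
Log2 difference between doxorubicin and vehicle for each regulator (horizontal axis) with limma's 95% interval, for all 6 libraries (circles) and without doxorubicin replicate 1 (diamonds). The intervals without replicate 1 are on the negative side for 7 regulators and on the positive side for Nrf1, and they cross 0 for Ppard and Rxra.

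A factor shared by all genes of a library cancels in the ratio of 2 regulators, whereas any correction of single genes by the authors would not, and whether one was made is not known. In all, 3 pairs were compared by an exact two-sided permutation test, in which 3 libraries against 3 cannot give a p below 0.1. The log2 ratio of Ppara to Ppard was 0.92, 1.63 and 1.43 in vehicle libraries, then 0.97, -0.07 and -0.10 in doxorubicin replicates 1 to 3. Ppara thus exceeded Ppard in raw normalized counts in all vehicle libraries and not in doxorubicin replicates 2 and 3. The difference in that ratio was -1.05 (exact permutation p 0.2, 0.6 after Benjamini-Hochberg adjustment over the 3 pairs), and replicate 1 lay inside the vehicle range. Without replicate 1 it was -1.41.

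The log2 ratio of Esrra to Esrrg averaged 1.78 ± 0.18 in vehicle libraries and 1.99 ± 0.46 after doxorubicin (SD, n = 3 in each group; exact permutation p 0.6, adjusted 0.6). The difference was 0.21 with all libraries, 0.47 without doxorubicin replicate 1 and 0.025 without replicate 3. For Ppargc1a to Ppargc1b the ratio was 0.83, 0.23 and 1.45 in vehicle libraries and 0.64, 2.36 and 1.36 after doxorubicin. This difference of 0.62 (exact permutation p 0.5, adjusted 0.6) was 1.02 without doxorubicin replicate 1 and 0.16 without replicate 2. The groups overlapped in all 3 ratios, and the test could not have passed 0.05 at this size.

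**Figure D4:**
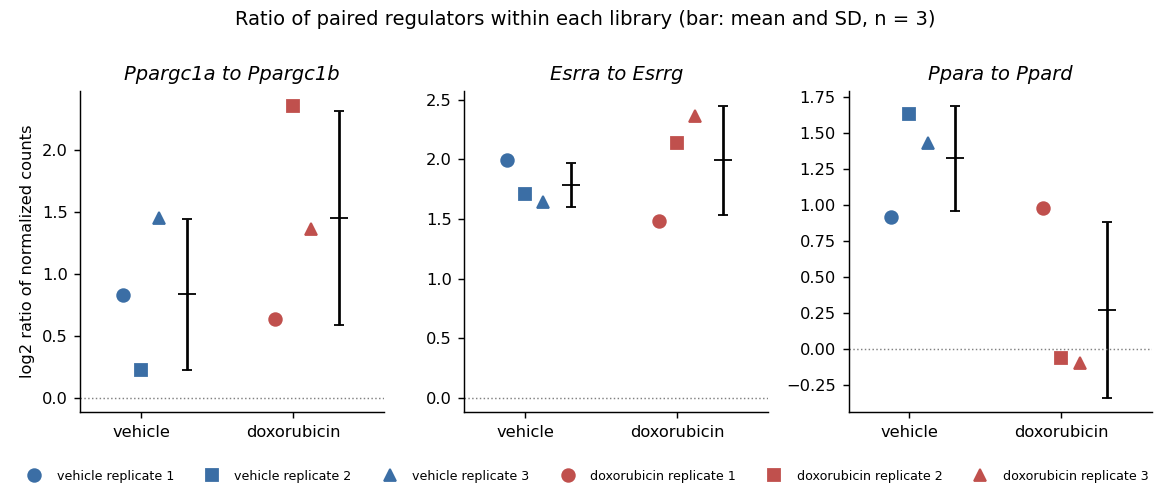
Log2 ratio of normalized counts (vertical axis, not per length) of 3 pairs of regulators in each library, with the mean and SD by a bar. The Ppara to Ppard ratio of doxorubicin replicates 2 and 3 is near 0, below every vehicle library, and the groups overlap in each pair because of doxorubicin replicate 1 or the spread of the vehicle libraries.

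Levels of different genes were compared per kilobase of transcript. With the longest annotated protein-coding transcript of each gene, Perm1 was the most abundant regulator in vehicle libraries, at 933 ± 97.1 normalized counts per kilobase (SD, n = 3), followed by Esrra (672 ± 17.8), Ppara (233 ± 36.7) and Rxra (146 ± 7.70). Ppargc1b (113 ± 37.4), Ppargc1a (112 ± 27.8) and Ppard (96.65 ± 13.02) came next. Their ranges of mean ± SD overlap, and those of Ppargc1b and Ppargc1a also overlap that of Rxra. Esrrg (82.0 ± 10.7) and Esrrb (76.0 ± 13.2) overlap each other and also Ppargc1b, Ppargc1a and Ppard in the same sense. Nrf1 was lowest, at 32.1 ± 1.64. With the median transcript length, Esrra came first at 2071 ± 55.0, because partial transcripts bring its length to 727 bases, so the order of the top 2 depends on the length used. Rxra (359) then stands above Ppara (315), and Ppargc1a (264) well above Ppargc1b (118). Nrf1 stayed lowest under both lengths.

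Within the ERR family, Esrra made up 81.0% ± 2.26 of the family's level per kilobase of longest transcript in vehicle libraries and 81.5% ± 3.77 after doxorubicin (SD, n = 3 in each group). The share of Esrrg was 8.77%, 10.2% and 10.6% in vehicle libraries, then 11.6%, 7.77% and 6.91% in doxorubicin replicates 1 to 3, so replicates 2 and 3 lay below every vehicle library and replicate 1 above them all. Between Ppara and Ppard, the share of Ppara was 64.5%, 74.8% and 72.1% in vehicle libraries, then 65.3%, 47.9% and 47.2% in doxorubicin replicates 1 to 3. Between the PGC-1 coactivators, Ppargc1a held 50.2% ± 10.4 in vehicle libraries and 60.1% ± 13.8 after doxorubicin, a difference within the spread. With median transcript lengths its vehicle share is 68.9% ± 8.91.

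The genes with the profile most like that of Perm1 over the 6 libraries were Lynx1, Ak4 and Slc25a13. Among 8224 tested genes with a mean of at least 100, their log2 values less the vehicle mean had the smallest root mean square differences from Perm1, at 0.076, 0.078 and 0.080. Slc25a13, an aspartate-glutamate carrier of mitochondria, was at 1046, 1146 and 1359 in vehicle libraries and 903, 294 and 335 after doxorubicin. Ak4, a mitochondrial adenylate kinase, was at 358, 397 and 496 and then 326, 105 and 112. Lynx1, a membrane-anchored modulator of nicotinic receptors, was at 2649, 2621 and 3117 and then 2096, 775 and 685. Each had its lowest values in doxorubicin replicates 2 and 3, which follows from its choice by likeness to Perm1.

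Other genes of the pathway were described by 6 lists holding 104 distinct genes, all tested. None of them (0) was called by limma with all libraries, as none of all tested genes was. The shares over all tested genes to set beside the counts below are 22.6% lower and 19.2% higher without overlap, and 21.8% called lower and 19.3% called higher without doxorubicin replicate 1. ERR targets include proteins of the citric acid cycle, electron transfer and energy shuttling, beside others such as Mfn2, Ucp3 and Vegfa. They were lower in 19 of 20, among them Ucp3 at only -0.08, with a median log2 difference of -1.04. In 17 of the 20 the groups did not overlap, all lower, and 17 had an unadjusted p under 0.05. Limma called 18 of them lower and 0 higher without doxorubicin replicate 1. Vegfa, an angiogenic factor, had the largest negative difference of the list at -1.59 (SE 0.56, limma adjusted p 0.0984), with doxorubicin values of 2037, 372 and 606 against 1851 to 2832 in vehicle libraries. Pdk4, the kinase that turns off pyruvate dehydrogenase and a target of both ERRs and PPARs, was the exception at 0.80 (SE 0.61, limma adjusted p 0.365). It ranged from 2100.1 to 6254 in vehicle libraries and was at 5233, 14722 and 3064 after doxorubicin, within the vehicle range in replicates 1 and 3. Its difference was 0.18 without doxorubicin replicate 2, 0.43 without vehicle replicate 3, 1.21 without vehicle replicate 2 and 1.31 without doxorubicin replicate 3.

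PPAR targets, which share 5 genes with the ERR list (Cpt1b, Acadm, Pdk4, Ucp3 and Fabp3), were lower in 18 of 25, with a median of -0.69. The groups did not overlap in 13 lower and 2 higher members. The 13 lower ones included the mitochondrial oxidation enzymes Acadl, Acadm, Acadvl, Hadha, Hadhb and Decr1. The enoyl-CoA isomerase Eci1 had the largest negative difference, at -1.16 (SE 0.31, limma adjusted p 0.0859), which went from 2055 to 2111 in vehicle libraries to 1394, 1048 and 562. On the other side stood Angptl4, a secreted inhibitor of lipoprotein lipase, at 1.61 (SE 0.66, limma adjusted p 0.126). It held 72.7, 107 and 28.5 normalized counts with vehicle and 118, 487 and 114 after doxorubicin, without overlap but with replicate 2 far above the rest. The difference was 0.93 without doxorubicin replicate 2, and 1.94 without doxorubicin replicate 1 (limma adjusted p 0.0479). The carnitine palmitoyltransferase of liver type, Cpt1a, differed by 0.56 and the muscle type, Cpt1b, by -0.89 (limma adjusted p 0.0864 and 0.0878), each without overlap. Limma called 13 PPAR targets lower and 4 higher without doxorubicin replicate 1.

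NRF1 targets were lower in 14 of 16, with a median of -0.73, although Nrf1 itself was not. In 11 lower and 1 higher member the groups did not overlap. Alas1, the first enzyme of haem synthesis, had the largest difference at -1.57 (SE 0.46, limma adjusted p 0.0859), with 1691 to 2104 normalized counts in vehicle libraries and 1457, 375 and 469 after doxorubicin. Tfam, which packages and transcribes mitochondrial DNA, differed by -0.77 (SE 0.20, limma adjusted p 0.0859), from 356, 421 and 403 to 308, 189 and 210.2. Polg2, the accessory subunit of the mitochondrial DNA polymerase, had the largest positive difference, 0.47 (limma adjusted p 0.241). It rested on low values of 17.1 to 21.6 in vehicle libraries and 26.5 to 28.4 after doxorubicin. Limma called 11 NRF1 targets lower and 0 higher without doxorubicin replicate 1.

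Cofactors and partner factors of the regulators, by contrast, had a median of -0.10, with 13 of 20 lower and groups that did not overlap in 3 lower and 2 higher members. The corepressors Ncor1 (-0.14) and Nrip1 (-0.12) and the third PGC-1 family member Pprc1 (-0.06) had limma adjusted p of 0.539, 0.572 and 0.814. Lpin1, a phosphatidate phosphatase that also acts with PGC-1alpha, had the largest negative difference at -1.03 (SE 0.37, limma adjusted p 0.103), from 1573, 1657 and 1916 to 1513, 799 and 485. The coactivator Ncoa3 had the largest positive one at 0.63 (SE 0.17, limma adjusted p 0.0859), from 427, 508 and 425 to 592, 706 and 826. In the fit that left out doxorubicin replicate 1, 4 members were called lower and 1 higher, 5 of 20 against 41.1% of all tested genes.

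Genes that act upstream of Ppargc1a had a median of -0.28, with 12 of 18 lower and no overlap in 5 lower and 3 higher members. Prkaa2, the muscle catalytic subunit of AMP-activated kinase, was lower by 1.09 on the log2 scale (log2 difference -1.09, SE 0.35, limma adjusted p 0.0878), at 1329, 1474 and 1899 in vehicle libraries and 1294, 611 and 485 after doxorubicin. The CREB coactivator Crtc2 was at 174, 170.0 and 165 and then 195, 304 and 332, a log2 difference of 0.67 (SE 0.21, limma adjusted p 0.0878). In the same reduced fit, 9 were called lower and 3 higher.

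Sister and heterodimer receptors went both ways, with 6 of 11 above 0 and a median of 0.30. Rxrg, the RXR of striated muscle, was at 687, 708 and 677 in vehicle libraries and 452, 190.5 and 147 after doxorubicin, a log2 difference of -1.56 (SE 0.37, limma adjusted p 0.0859). Pparg, the PPAR of fat cells that macrophages and endothelium also express, was at 157, 124 and 99.6 and then 213, 345 and 424, a log2 difference of 1.33 (SE 0.28, limma adjusted p 0.0859). Neither gene's groups overlapped. Without doxorubicin replicate 1, Rxrg was at -2.04 and Pparg at 1.61 (limma adjusted p 0.000178 and 0.00112). Among the 3 PPARs, Ppara had a negative difference, Ppard one near 0 and Pparg a positive one, and among the RXRs Rxrg had a negative difference while Rxra was near 0. Rxrb, a widely expressed RXR, was at 389, 364 and 443 with vehicle and 363, 340 and 288 after doxorubicin, a log2 difference of -0.27 without overlap (limma adjusted p 0.234).

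**Figure D5:**
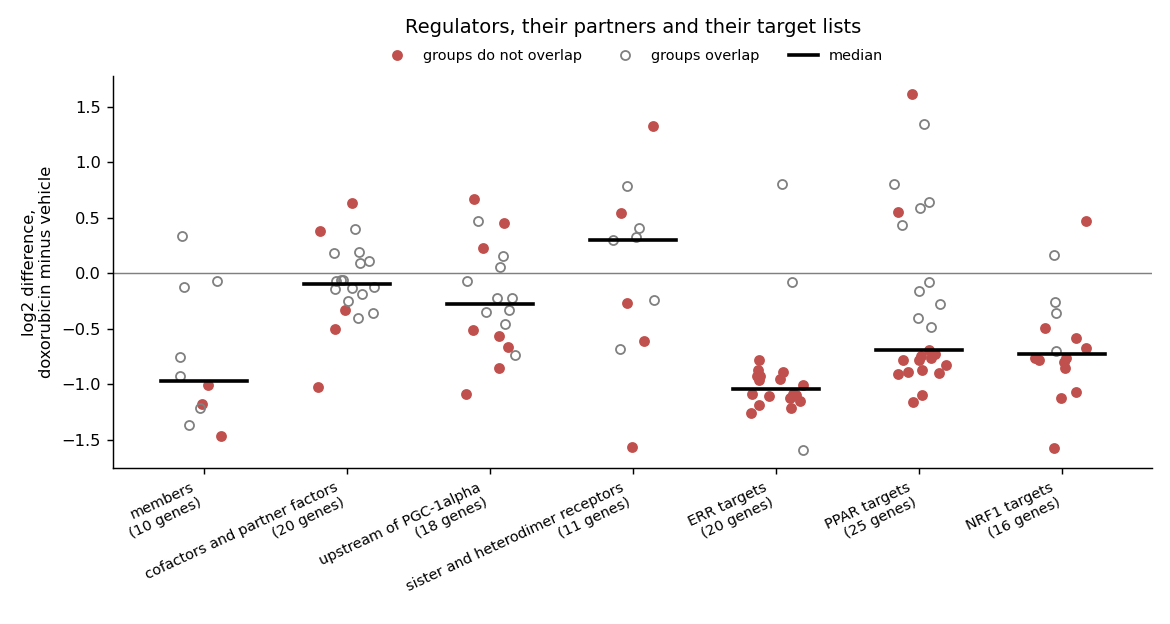
Log2 difference of every tested gene (vertical axis) of the 10 regulators (members) and of 6 pathway lists, with filled points where the groups do not overlap and a line at each median. The medians of the ERR, PPAR and NRF1 target lists are at -1.04, -0.69 and -0.73, those of the upstream genes and of the cofactors at -0.28 and -0.10, and that of the sister receptors at 0.30.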

How the data were processed

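RNA of 6 libraries (3 vehicle, 3 doxorubicin, grouped by their titles) was sequenced. Per the labels, alignment to mm10 with RefSeq genes used STAR within Illumina's RNAseq Alignment 2.0.2, and RNA-seq Differential Expression 1.0.1 came after it. The submitters' processing notes name STAR 2.6.1a and Salmon. The deposited table holds a signal at or above 0, read counts per gene as normalized by the authors. How they normalized, filtered and used strand is not given in the sources used. Values were not whole (80.0% to 92.5% of low values lay within 0.1 step of a whole read), so count models were not used and read numbers are estimates.

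Log2(value + 1) of 12477 genes with a mean of at least 10 was fitted with limma 3.58.1 in R 4.3.3 (trended empirical Bayes, two-sided, Benjamini-Hochberg over all tested genes, threshold 0.05), after a test on simulated data. Per the labels there were 3 mice per group. With pseudocount 1 a fold change of low genes is understated. Each regulator rested on about 54.0 reads or more per library. Coordinates and promoters are RefSeq's (GRCm38.p6), and transcript lengths GENCODE M21's. Of all names, 24407 matched a RefSeq symbol.

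The members, gene lists and markers were chosen with earlier results of these data known. Named genes were every regulator, the largest rise and fall of each pathway list, and the 3 genes most like the regulator with the largest difference. Other list genes named (such as Tfam, Cpt1a, Cpt1b, Ncor1, Nrip1 and Pprc1) were chosen after their values were seen. Alternatives changed the pseudocount, filter, scaling, moderation, weights, covariate, block, transcript length and each library in turn.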

Additional observations from a re-analysis of the deposited data

How the results depend on the processing

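Leaving out doxorubicin replicate 1 decided the calls of limma. Over the 6 removals of 1 library, regulators called lower ran from 0 to 7 and higher from 0 to 1, those without overlap from 3 to 7 lower and 0 to 1 higher, and their median from -1.30 to -0.71. Removing vehicle replicate 1 also gave 7 lower without overlap, against 28.2% of all tested genes. Calls in the lists ran from 0 to 18 for ERR targets, 0 to 17 for PPAR targets, 0 to 11 for NRF1 targets, 0 to 5 for cofactors, 0 to 12 for upstream genes and 0 to 5 for sister receptors. The median of cofactors ran from -0.18 to -0.066. Pair ratios ran from -1.41 to -0.87 (Ppara to Ppard), 0.03 to 0.47 (Esrra to Esrrg) and 0.16 to 1.02 (Ppargc1a to Ppargc1b).

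Library weights, which gave doxorubicin replicate 1 a weight of 0.277, called 18.6% of all tested genes lower and 15.7% higher, and among the regulators 7 lower and 0 higher. In the lists they called 17 ERR targets, 17 PPAR targets, 9 NRF1 targets, 4 cofactors, 11 upstream genes and 4 sister receptors. Equal totals, which move the median of all tested genes to 0.30, turned Ppard to 0.18 and Rxra to 0.23. The regulators then had a median of -0.67, with Ppargc1a at -0.46 and Esrrb at -0.63. Without overlap, 2 regulators were higher against 36.8% of all tested genes, and 2 were lower against 10%. List medians under equal totals were 0.20 (cofactors), 0.023 (upstream genes), 0.60 (sister receptors), -0.43 (NRF1 targets) and -0.39 (PPAR targets). Quantile normalization gave 0.024 for Rxra and medians of -0.028 (cofactors), -0.44 (NRF1 targets), -0.62 (ERR targets), -0.30 (PPAR targets) and -0.12 (upstream genes). Without doxorubicin replicate 3 the medians were -0.68 (ERR targets) and -0.39 (PPAR targets), and that of sister receptors was 0.18. A minimum mean of 50 gave 0.029 for sister receptors, with fewer genes tested. The replicate numbers were not treated as pairs in the main fit. Deviations from the group means correlated at -0.13, 0.03 and -0.09 for same-numbered libraries, and at -0.18 to 0.22 for differently numbered ones. With 3 libraries per group these correlations cannot settle whether the numbers mark pairs. The fit with the replicate block called 0 regulators with the same differences. For the pair ratios under the block, exact permutation p was 1 (Ppargc1a to Ppargc1b), 0.75 (Esrra to Esrrg) and 0.5 (Ppara to Ppard). In that test, 3 pairs of libraries allow no p below 0.25. The fewest estimated reads of any regulator in 1 library were 54.0 (Ppargc1b) and 66.4 (Esrrb), while Nrf1 had 107 to 178 throughout.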
